A study of Mus musculus with 6 samples.

Results

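The 10 genes described here encode the Fos proteins (Fos, Fosb, Fosl1, Fosl2), the Jun proteins (Jun, Junb, Jund) and 3 further immediate early factors, Atf3, Egr1 and Maff. The rule takes them by name and uses no measured value, though the set was proposed with earlier results of these data known. Each was found once among the 24421 genes of the count table. Fos and Jun proteins pair through leucine zippers into AP-1, a transcription factor that binds the sequence TGANTCA and drives genes of growth, invasion and inflammation. Several of these genes are immediate early genes: growth factors, cytokines and stress switch them on through MAP kinases without new protein synthesis, and their transcripts are lost again soon afterwards. In carcinoma cells, Fosl1 in particular is known for its part in migration and invasion. Of the others, Atf3 is a bZIP factor of the stress response, Egr1 is a zinc finger factor driven by serum response factor, and Maff is a small Maf protein that lacks an activation domain.

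Total RNA was measured in 6 samples of 4T1-tetL1(GLucAI) cells. These cells derive from 4T1, a mouse mammary carcinoma line of BALB/cfC3H origin, and are a stable population, not 1 clone. All 6 samples carry the same integrated cassette, in which a tetracycline-responsive promoter drives a recoded mouse LINE-1 (L1) retrotransposon with a Gaussia luciferase readout of retrotransposition and, in the other direction, firefly luciferase, while EF1α drives the Tet-On transactivator and blasticidin resistance. The comparison, 3 untreated libraries (vehicle in the treatment tag) against 3 libraries labelled doxycycline (400 ng/mL for 48 h), asks what induction of L1 does to the transcriptome. No doxycycline-treated cells without the cassette are among the libraries, so effects of doxycycline and of L1 cannot be told apart, and the cassette transcripts that would check the labels were not analysed here.

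The deposited libraries held 31653464 to 43631312 counts over genes. In each, 15418 to 15685 genes had a count. Of 13084 genes tested with the quasi-likelihood test of edgeR, 121 were higher and 283 lower in the libraries labelled doxycycline at a Benjamini-Hochberg adjusted p under 0.05. The ribosomal RNA precursor Rn45s took 8.83% to 11% of counts in untreated libraries and 9.6% to 12.1% in those labelled doxycycline. The epithelial markers Epcam, Krt8, Krt18, Krt19 and Cdh1 were all detected, with summed levels of 1430 to 1480 CPM (counts per 1000000 of the TMM-scaled library total) against 1390 to 1540 CPM. Of the immune markers Adgre1 was at 0 in all libraries, and the sum with Ptprc and Cd68 was 9.36 to 11.6 against 8.83 to 10.7 CPM, nearly all of it Cd68. The 3 endothelial markers summed to 0.245 to 0.679 CPM over the 6 libraries. The 3 fibroblast markers summed to 35.5 to 38.1 CPM in untreated libraries and 27.5 to 28.8 CPM in those labelled doxycycline, nearly all of it Pdgfra. The part of this difference in the values below was not tested.

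The promoters of 3 of the genes are shown because these genes open the account of each group below: Fos and Jun as the founding partners of AP-1, and Atf3 as the stress factor among the 10. Each is the 250 bases before the RefSeq start on the strand of the gene, in build GRCm38.p6, which is the build of the counts. Capitals mark matches to the letters searched on both strands, namely TGANTCA (AP-1 site), TGACNTCA (cAMP response element, CRE, or AP-1-like site), TGACGT (CRE core, contained in TGACGTCA), TATAAA and CCAAT. The CArG box, the serum response factor site, was also searched.
Fos, chr12:85473640-85473889, plus strand: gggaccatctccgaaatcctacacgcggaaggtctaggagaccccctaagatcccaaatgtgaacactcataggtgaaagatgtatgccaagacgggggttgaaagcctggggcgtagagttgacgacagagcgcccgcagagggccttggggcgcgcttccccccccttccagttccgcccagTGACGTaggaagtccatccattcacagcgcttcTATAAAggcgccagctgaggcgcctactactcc
Jun, chr4:95052223-95052472, minus strand: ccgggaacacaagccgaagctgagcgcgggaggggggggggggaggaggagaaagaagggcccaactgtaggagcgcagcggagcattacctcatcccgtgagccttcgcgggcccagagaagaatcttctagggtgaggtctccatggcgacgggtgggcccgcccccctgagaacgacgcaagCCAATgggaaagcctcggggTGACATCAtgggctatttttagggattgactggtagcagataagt
Atf3, chr1:191183334-191183583, minus strand: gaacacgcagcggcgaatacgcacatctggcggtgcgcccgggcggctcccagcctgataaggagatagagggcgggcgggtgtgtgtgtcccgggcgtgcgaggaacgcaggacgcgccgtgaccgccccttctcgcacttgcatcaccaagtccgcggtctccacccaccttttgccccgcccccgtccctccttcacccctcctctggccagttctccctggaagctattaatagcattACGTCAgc
The Fos window held a CRE core that begins 66 bases before the start and TATAAA at 33 bases. The Jun window held TGACATCA at 45 bases and CCAAT at 65 bases. The Atf3 window held ACGTCA, that core on the other strand, at 8 bases. RefSeq windows were searched for 8 of the 10 genes, without Egr1 and Fosl1, as 10 windows in all. Maff, with several windows, held TGACGTCA in one at 29 bases and TGACATCA in another at 45 bases, while a further Maff window held no match. Junb held CCAAT at 36 bases. No window searched held TGANTCA or a CArG box within these 250 bases, and Egr1 was not among the genes searched. The Jund window ended at 70697738, before the annotated start of Jund at 70698949 (GENCODE M21). The Atf3 window shown lies inside the annotated gene, which on the minus strand starts at 191218039. It is thus upstream of a RefSeq start within the gene and not of the whole annotated gene. The Fosl2 window and the Maff windows with a match also lie inside their annotated genes. Among all 32851 such windows, TGANTCA occurred in 6.75%, TGACNTCA in 7.49%, TGACGT in 6.47%, TATAAA in 12.4%, CCAAT in 33.8% and the CArG box in 1.47%. A match is a description of letters and not of binding.

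All 10 genes passed the filter on low counts, and together they took 0.0589% to 0.0626% of the counts of a library. None of the 10 was past the threshold in the edgeR quasi-likelihood test (Benjamini-Hochberg over all tested genes), beside 3.09% of all tested genes called in either direction, 0.925% higher and 2.16% lower. At an unadjusted p under 0.05 stood 6 of the 10, namely Fos, Fosl1, Jun, Jund, Atf3 and Egr1, where 16.2% of all tested genes did. In bulk RNA, fewer cells that express a gene and less RNA per cell cannot be told apart. By direction, 5 fitted differences were above 0 and 5 below, with a median log2 fold change of 0.01 beside 0.0025 over all tested genes. The counts of 3 genes, Fosl1, Jun and Egr1, scaled to CPM, were higher in every library labelled doxycycline than in any untreated library, where 10.1% of all tested genes were. For 0 of the 10 did the groups separate in the other direction, where 11.1% of all tested genes did. The number called depended on the test: the Wald test of DESeq2 called 2 of the 10 (Fos and Fosl1) and limma voom 0.

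**Figure D1:**
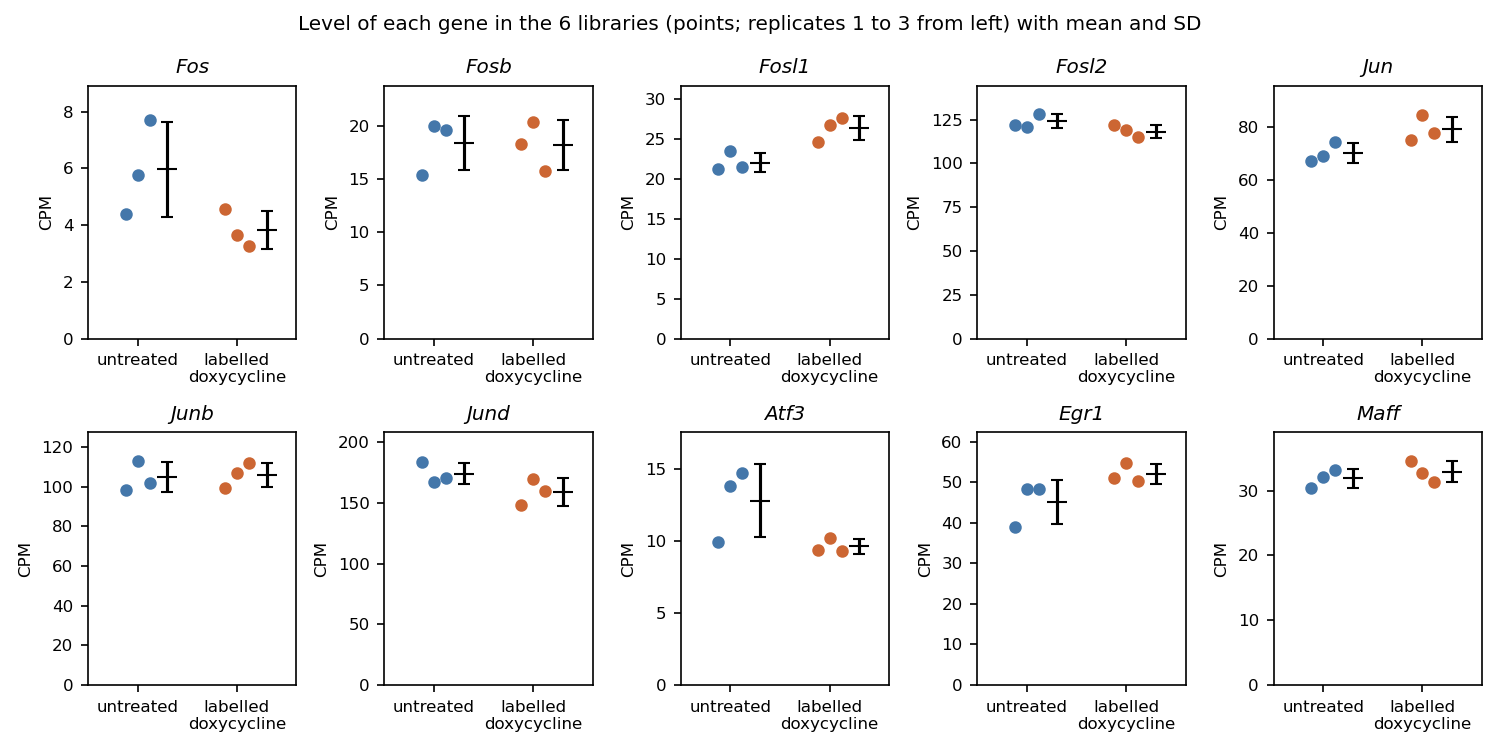
Level of each of the 10 genes in CPM (vertical axes, each from 0) in the 3 untreated libraries (blue) and the 3 labelled doxycycline (orange), with the mean and SD of each group as a black bar beside the points. Fosl1, Jun and Egr1 have all 3 orange points above the blue ones, while Fos ranges from 4.4 to 7.72 CPM in untreated libraries and from 3.27 to 4.56 CPM in the others.

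Among the Fos genes, Fos itself, the inducible founding member, was the lowest. It lies at chr12:85473890-85477273 on the plus strand (GENCODE M21, GRCm38). Its counts were 193, 192 and 289 in the untreated libraries and 145, 149 and 125 in the others. Scaled, these were 4.4, 5.76 and 7.72 CPM against 4.56, 3.65 and 3.27 CPM. Untreated replicate 1 and doxycycline replicate 1 lay next to each other, so the groups overlapped, and the remaining libraries were apart. The group means were 5.96 ± 1.67 CPM (SD, n = 3) and 3.82 ± 0.665 CPM (SD, n = 3). The fitted log2 fold change was -0.64 (SE 0.19, 95% interval -1.03 to -0.25, adjusted p = 0.0667 by edgeR), the largest of the 10 in size. Fos was also the most variable of the 10, with a biological coefficient of variation of 14.2% where genes of its level had 10.9%, higher than that of 81.8% of tested genes. Its call turned on single libraries: without untreated replicate 1 the log2 fold change was -0.83 (adjusted p = 0.0251 by edgeR), and leaving out doxycycline replicate 1 gave -0.78 (adjusted p = 0.0232). In the other direction, it was -0.41 without untreated replicate 3 (adjusted p = 0.428 by edgeR) and -0.54 without doxycycline replicate 3 (adjusted p = 0.269 by edgeR). Over the other libraries left out and the other settings the adjusted p of Fos ranged from 0.00273 to 0.428, with a negative log2 fold change throughout.

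Fosb, whose product pairs with Jun proteins much as Fos does, stood at 15.4, 20 and 19.6 CPM in untreated libraries and 18.3, 20.4 and 15.8 CPM in those labelled doxycycline. The ranges overlapped almost fully. The log2 fold change was -0.01 (95% interval -0.23 to 0.21, adjusted p = 0.976 by edgeR), so differences of up to about these bounds in either direction are within its error.

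Fosl1 encodes FRA-1, a Fos protein without the transactivation domain of Fos. It lies at chr19:5447547-5455946 on the plus strand. It stood at 21.2, 23.4 and 21.5 CPM in the untreated libraries, and at 24.6, 26.7 and 27.6 CPM in those labelled doxycycline. Every library labelled doxycycline was above every untreated one. The means were 22 ± 1.18 and 26.3 ± 1.54 CPM (SD, n = 3 each), and the log2 fold change was 0.26 (SE 0.08, 95% interval 0.1 to 0.42, adjusted p = 0.0772 by edgeR). Without doxycycline replicate 1 it was 0.3 (adjusted p = 0.0325 by edgeR), and over all settings the adjusted p ranged from 0.0256 to 0.287 with a positive log2 fold change in each. Of the 2033 merged exon bases of Fosl1, 1163 (57.2%) lie over exons of Ccdc85b, a gene on the opposite strand. Ccdc85b itself had a log2 fold change of 0.23 (SE 0.07, adjusted p = 0.0608 by edgeR) and did not overlap between groups either. The strand setting of the counting is not stated, and without strand the reads of the pair cannot be told apart over the shared bases.

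Fosl2 encodes FRA-2, the other Fos-related antigen, and was the steadiest of the 10. Its levels were 122, 121 and 128 CPM in untreated libraries and 122, 119 and 115 CPM in those labelled doxycycline. Its coefficient of variation was higher than that of only 7.18% of tested genes. The log2 fold change was -0.07 (SE 0.05, 95% interval -0.17 to 0.03, adjusted p = 0.537 by edgeR).

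Of the Jun genes, Jun, the stress-responsive partner of Fos and a target of JNK, lies at chr4:95049034-95052222 on the minus strand. It stood at 66.9, 68.9 and 74.3 CPM in untreated libraries. In the libraries labelled doxycycline it stood at 75.2, 84.3 and 77.5 CPM. The groups lay close but did not overlap, untreated replicate 3 lying just under doxycycline replicate 1. The log2 fold change was 0.18 (SE 0.06, 95% interval 0.05 to 0.3, adjusted p = 0.121 by edgeR).

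Junb, which often restrains Jun on growth genes, stood at 98.6, 113 and 102 CPM in untreated libraries and 99.4, 107 and 112 CPM in those labelled doxycycline. Both groups covered nearly the same range. Its log2 fold change was 0.02 (SE 0.06, 95% interval -0.1 to 0.14, adjusted p = 0.895 by edgeR). It shares 173 exon bases with Prdx2, a peroxiredoxin gene on the opposite strand with a log2 fold change of -0.15 (adjusted p = 0.0652 by edgeR).

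Jund, the Jun gene that most cells transcribe steadily, stood at 184, 167 and 171 CPM in untreated libraries and at 148, 170 and 160 CPM in those labelled doxycycline. Doxycycline replicate 2 lay among the untreated libraries, and the other two were below them. The log2 fold change was -0.13 (SE 0.05, 95% interval -0.24 to -0.02, adjusted p = 0.233 by edgeR). Without doxycycline replicate 2 it was -0.18 (adjusted p = 0.00656 by edgeR), while over all settings the adjusted p ranged up to 0.594. Of its 1668 exon bases, 877 (52.6%) lie over the antisense gene Gm11175, and Jun shares 232 bases with the antisense gene Junos.

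Among the factors outside both families, Atf3 can pair with Jun proteins and is induced in the integrated stress response. It lies at chr1:191170296-191218039 on the minus strand. It stood at 9.95, 13.8 and 14.7 CPM in untreated libraries and at 9.37, 10.2 and 9.27 CPM in those labelled doxycycline. As for Fos, untreated replicate 1 lay within the range of the libraries labelled doxycycline and the other untreated libraries lay above it. The means were 12.8 ± 2.53 and 9.63 ± 0.53 CPM (SD, n = 3 each), with a log2 fold change of -0.41 (SE 0.13, 95% interval -0.67 to -0.14, adjusted p = 0.0882 by edgeR). Without untreated replicate 1 it was -0.57 (adjusted p = 0.0142 by edgeR), and leaving out doxycycline replicate 2 gave -0.45 (adjusted p = 0.0273). Over all settings the adjusted p of Atf3 ranged from 0.0113 to 0.432 with a negative log2 fold change in each.

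Egr1, a growth factor-induced activator, stood at 39, 48.3 and 48.4 CPM in untreated libraries and at 51, 54.8 and 50.3 CPM in those labelled doxycycline. Its lowest value was again that of untreated replicate 1, and the groups did not overlap. The log2 fold change was 0.20 (SE 0.07, 95% interval 0.05 to 0.36, adjusted p = 0.156 by edgeR). Without untreated replicate 1 it was 0.11 (adjusted p = 0.56 by edgeR), and it ranged from 0.11 to 0.26 with a library left out. Maff, whose product pairs with other bZIP factors, stood at 30.4, 32.1 and 33.2 CPM against 34.6, 32.8 and 31.4 CPM. Its groups overlapped, and the log2 fold change was 0.05 (SE 0.07, 95% interval -0.1 to 0.19, adjusted p = 0.805 by edgeR).

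Untreated replicate 1 held the lowest untreated value for 8 of the 10 genes and the highest for Jund. Without it, 3 of the 10 genes instead of 6 had an unadjusted p under 0.05. At the adjusted threshold 2 were called instead of 0, namely Fos and Atf3, both lower.

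**Figure D2:**
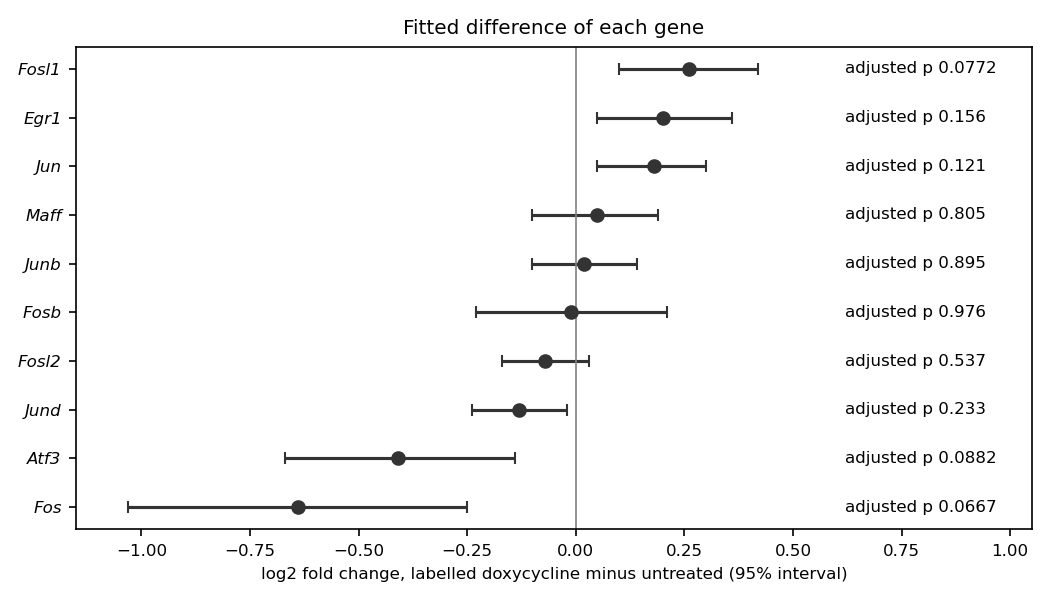
Fitted log2 fold change of each of the 10 genes (points) with its 95% interval (bars), libraries labelled doxycycline minus untreated libraries, with edgeR adjusted p-values at the right. The intervals of Fosl1, Egr1 and Jun lie above 0, those of Jund, Atf3 and Fos below, and the remaining 4 include it, while no adjusted p is under 0.05.

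Levels of different genes were compared per length, as TPM (counts per merged exon base, scaled to a total of 1000000 in each library). The Jun genes stood above the rest in both groups. In untreated libraries Jund was highest at 393 ± 12.1 TPM, then Junb at 172 ± 15.8 TPM and Jun at 82.8 ± 5.06 TPM (SD, n = 3 each), and the ranges of these 3 did not overlap. Below them, Fosl2 (48.2 TPM), Maff (46.4 TPM), Fosl1 (40.9 TPM) and Egr1 (38.1 TPM) formed a run in which each overlapped its neighbour. Atf3 followed at 22.5 TPM, apart from its neighbours, and Fosb (11.1 TPM) and Fos (9.56 TPM) came last and overlapped. In the libraries labelled doxycycline, the top 3 kept their order, at 368, 178 and 95.5 TPM. The middle run there was Fosl1 (49.8 TPM), Maff (48.9 TPM), Fosl2 (47.1 TPM) and Egr1 (44.7 TPM), again with overlapping neighbours. Fosl2 spanned 46.6 to 50 TPM and Fosl1 38.6 to 44.3 TPM in untreated libraries, with Fosl2 higher in all 3, whereas in the libraries labelled doxycycline they overlapped, at 45.2 to 48.5 and 45.7 to 52 TPM. The exon bases that Fosl1 shares with Ccdc85b make its place beside Fosl2 uncertain. Scaled by the longest coding transcript in place of merged exons, Fosl2 stayed above Maff and Fosl1 in both groups, with no overlap between neighbours in that run. On that scale Atf3 and Fosb overlapped in both groups, and Fosb and Fos did not.

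The summed level of the 4 Fos genes was 110 ± 7.38 TPM in untreated libraries and 114 ± 4.5 TPM in those labelled doxycycline. That of the 3 Jun genes was 648 ± 9.07 and 641 ± 52.5 TPM (SD, n = 3 each). The Jun sum was 5.26 to 6.35 times the Fos sum over the 6 libraries, with overlapping groups.

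Within the Fos family, Fosl1 made up 38.1%, 38.8% and 34.9% of the summed TPM in untreated libraries, against 41%, 43.5% and 46.3% in those labelled doxycycline. The 2 groups did not overlap, and the means differed by 6.3 percentage points. With the strand setting unknown, the 57.2% of Fosl1 exon bases that lie over Ccdc85b leave the level and share of Fosl1 uncertain. The same holds for Jund, with 52.6% over Gm11175. The share of Fos was 6.82%, 8.25% and 10.8% against 6.56%, 5.13% and 4.74%, also without overlap. In counts not scaled for length the share of Fos did overlap, at 2.69%, 3.38% and 4.36% against 2.7%, 2.15% and 2.03% (exact permutation p = 0.2). The difference in TPM share of -3.16 points was -2.06 points without untreated replicate 3. Fosl2, which with Fosl1 made up most of the family, averaged 44% and 41.2%, and Fosb 10.1% and 9.79%. In the Jun family, Jun averaged 12.8% and 14.9%, Junb 26.5% and 27.7%, and Jund 60.7% and 57.4%. The Jund difference of -3.34 points was -2.05 points without untreated replicate 1. For the TPM shares of Fos, Fosl1, Jun and Jund the exact two-sided permutation test gave p = 0.1, the smallest that 3 against 3 libraries can give, and p = 0.175 after Benjamini-Hochberg adjustment over the 7 shares. Shares within a family are not independent, since a lower share of one gene raises the others.

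**Figure D3:**
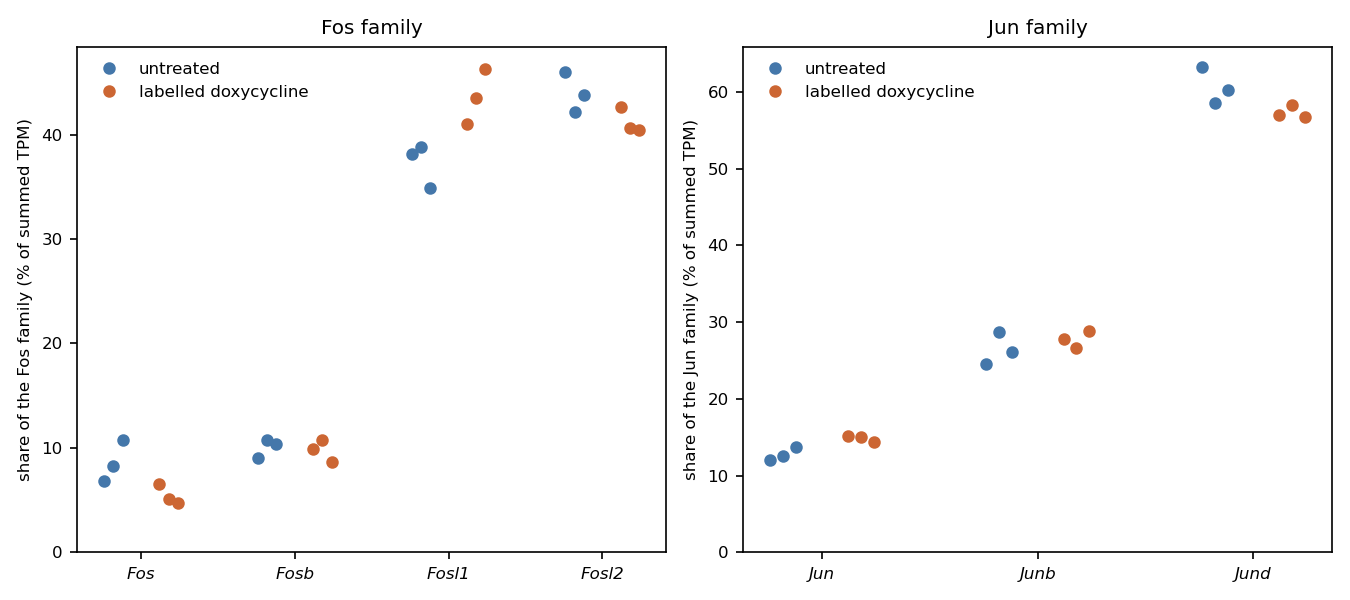
Share of each gene in the summed TPM of its family, in percent, for the Fos family (left) and the Jun family (right), with 1 point for each untreated library (blue) and each library labelled doxycycline (orange). The shares of Fosl1 and Jun are higher in all 3 libraries labelled doxycycline, and those of Fos and Jund lower.

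The genes around AP-1 were examined by lists written from general knowledge, but with earlier results of these data known. No list count is therefore independent evidence. Their counts stand beside 0.925% of all tested genes called higher, 2.16% called lower and 16.2% at an unadjusted p under 0.05. Of 14 AP-1 relatives, which are further bZIP factors that share partners or sites with Fos and Jun, 11 were tested. By edgeR, 0 of them were called, 5 had an unadjusted p under 0.05, and DESeq2 and limma voom called 0 as well. Their median log2 fold change was 0. The most highly expressed were Nfe2l1, a regulator of proteasome genes, at 197 ± 1.54 and 212 ± 10.1 CPM (log2 fold change 0.11, adjusted p = 0.243 by edgeR), and Atf2, a stress kinase target that pairs with Jun, at 126 ± 3.18 and 117 ± 3.85 CPM (log2 fold change -0.10, adjusted p = 0.29 by edgeR).

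Upstream, the list of kinases and factors of the MAP kinase and serum response pathways had 28 tested members of 29. None was called by edgeR, DESeq2 or limma voom, 5 had an unadjusted p under 0.05, near the 16.2% of all tested genes, and the median log2 fold change was 0. Rps6ka3, which encodes the growth factor-activated kinase RSK2, stood at 166, 177 and 180 CPM in untreated libraries, against 167, 148 and 164 CPM in those labelled doxycycline. The groups overlapped. It had a log2 fold change of -0.13 (SE 0.05, adjusted p = 0.221 by edgeR).

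Of the 10 MAP kinase phosphatases, which switch these kinases off, 1 was called higher and 0 lower. Dusp5, a nuclear phosphatase that growth factor signalling induces, stood at 22.3, 22 and 26.4 CPM in untreated libraries and 28.9, 28.2 and 30 CPM in those labelled doxycycline. It rose by a log2 fold change of 0.30 (SE 0.08, adjusted p = 0.0392 by edgeR). It was no longer called when untreated replicate 1, untreated replicate 2 or doxycycline replicate 3 was left out, with log2 fold changes of 0.26 to 0.28.

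Of 42 other immediate early genes, 41 were tested, and 1 was called lower and 0 higher by edgeR, with 13 at an unadjusted p under 0.05 and a median log2 fold change of -0.04. The gene called was Zfp36l1, whose product binds AU-rich elements and speeds the decay of short-lived transcripts. It fell from 102, 95.2 and 98.9 CPM to 83.8, 74.2 and 78.2 CPM (log2 fold change -0.33, SE 0.05, adjusted p = 0.00102 by edgeR), with no overlap between groups. DESeq2 called 1 gene of this list higher and 2 lower.

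Among 22 textbook AP-1 targets, 21 were tested, of which 8 were called lower and 0 higher by edgeR, where 2.16% and 0.925% of all tested genes were. The list was written with earlier results of these data known, so its count is not independent evidence. Of the 21, 17 had a log2 fold change below 0, and the median was -0.27. The matrix metalloproteinases Mmp3, Mmp13, Mmp9 and Mmp10, which cleave the extracellular matrix, were all among those called. Mmp3 fell from 179, 163 and 161 CPM to 101, 98.5 and 106 CPM (log2 fold change -0.72, SE 0.05, adjusted p = 3.27e-08 by edgeR). Mmp13 fell from 50.2, 46.4 and 48.8 CPM to 30.5, 27.8 and 28 CPM (log2 fold change -0.76, SE 0.07, adjusted p = 4.74e-07 by edgeR). Mmp9 fell from 74.7, 78.9 and 80.6 CPM to 51.2, 53 and 45.9 CPM (log2 fold change -0.64, SE 0.06, adjusted p = 1.97e-06 by edgeR). In all 3 the groups did not overlap. Mmp10 fell less, with a log2 fold change of -0.27 (adjusted p = 0.0366 by edgeR), and it was not called when any 1 of the untreated libraries or doxycycline replicate 3 was left out.

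The metallothioneins, which bind zinc and also answer to metal through MTF1, were lower too. Mt2 fell from 53.9, 55.5 and 68.7 CPM to 35.5, 31.9 and 35.5 CPM (log2 fold change -0.79, SE 0.08, adjusted p = 4.08e-06 by edgeR). Mt1 fell by 0.40 on the log2 scale (SE 0.07, adjusted p = 0.00196 by edgeR). Both secreted signals on the list that were called also fell: the chemokine gene Ccl2 had a log2 fold change of -0.60 (SE 0.11, adjusted p = 0.00236 by edgeR), and Csf2, which encodes the growth factor GM-CSF, one of -0.73 (SE 0.16, adjusted p = 0.013 by edgeR) from 4.92, 4.32 and 5.21 CPM to 3.05, 2.57 and 3.13 CPM. Csf2 was not called without untreated replicate 1 (adjusted p = 0.0656 by edgeR) or untreated replicate 3 (adjusted p = 0.1). The epithelial marker Krt19 (log2 fold change -0.31, adjusted p = 0.00782 by edgeR) and the fibroblast marker Pdgfra (log2 fold change -0.40, adjusted p = 0.000952 by edgeR) were lower in the same libraries, and their part in these results was not tested.

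**Figure D4:**
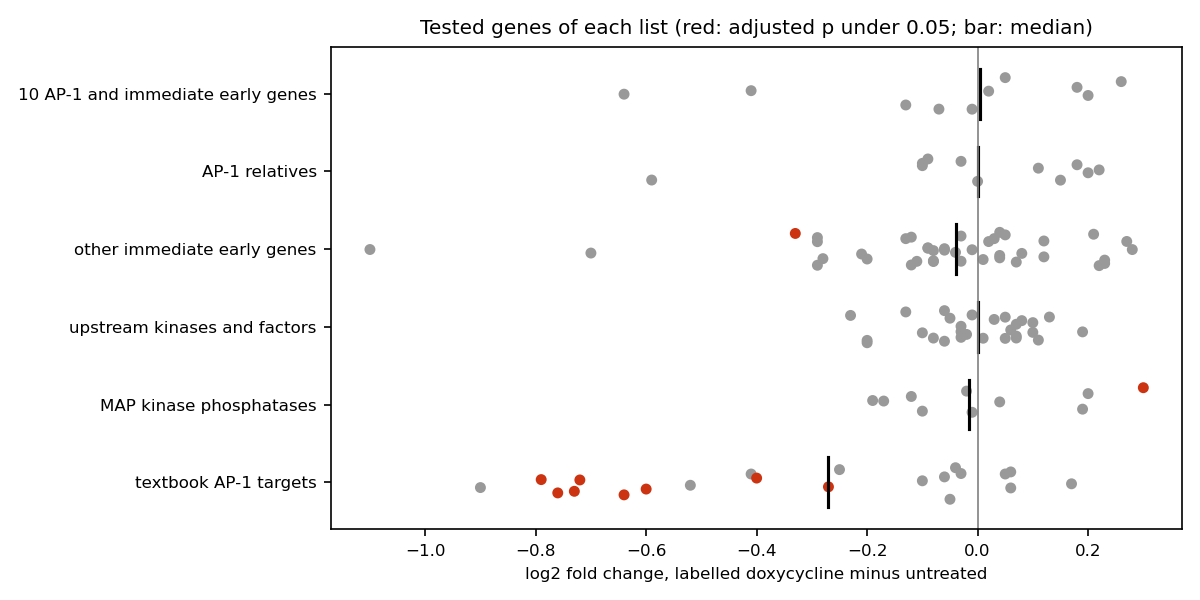
Log2 fold change, libraries labelled doxycycline minus untreated, of each tested gene (points) in the 10 genes and the 5 lists, with the median as a black bar and genes at an edgeR adjusted p under 0.05 in red. No red point is among the 10 genes, and 8 are among the 21 tested AP-1 targets, all below 0, where the median is -0.27. The vertical scatter within a row only separates points.

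As a description of likeness across the 6 libraries, the log2 CPM of Fos followed most closely Dcaf6 (Pearson r = 0.997), Arl13b (r = 0.992) and Terc (r = 0.989) among 11647 genes compared. For Fosl1 the closest were Dock9 (r = 0.994), Wars2 (r = 0.989) and Chac1 (r = 0.987). None of these 6 genes was called, their adjusted p in edgeR ranging from 0.13 to 0.707. The 6 points share libraries and depth, and the values of r carry no test.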

How the data were processed

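The authors deposited 1 table of raw read counts per gene, with replicates kept apart and no normalization. Libraries were depleted of ribosomal RNA and made with a strand-preserving kit. Per the methods and processing notes, reads were demultiplexed with bcl2fastq 2.20, aligned with STAR (version not given in the sources used here) to mm10/GRCm38 and counted with featureCounts (Subread 1.6.2). How strand and multiply mapped reads were treated in counting is not stated, which touches genes that overlap others.

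Groups came from the sample titles, and 0 columns were left unmatched. The study calls the replicates biological triplicates, and the labels do not say how they were raised, so p-values measure the spread between these samples. The chi-square per degree of freedom of replicate pairs was 6.35 to 23.18, a spread beyond that of counting alone. Each library was treated as a separate sample. Groups were compared in edgeR 4.0.16 (R 4.3.3) by its quasi-likelihood F test (robust, TMM, group only), as the raw counts allow; the study used DESeq2. The filterByExpr function kept 13084 of 24421 genes, and 6760 had no count. Intervals and SE are from the same fit. A level equal to 3 counts was 0.0688 to 0.0948 CPM. TPM used merged exon lengths of GENCODE M21 for the 23376 genes matched by symbol. Promoters are from RefSeq.

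The 10 genes, though taken by name, and all lists were chosen with earlier results of these data known, so no p is given over a list. The permutation tests of family shares are of single genes within a family, and they carry the same limit. All 10 genes are named. From each list, genes past the threshold are named (at most 8), or else the 2 of highest level (1 such gene is not reported here), and for Fos and Fosl1 the 3 genes of most similar pattern with a mean of at least 1 CPM, with 0.1 added before the logarithm. Alternatives were DESeq2 1.42.0 (Wald test and size factors), limma 3.58.1 (voom), other scalings and filters, a GC content and length correction (96.3% of tested genes had values), the replicate block, and each library left out. Shares by longest coding transcript were added after seeing the data. On simulated data of this comparison (12985 genes tested), the test called 98% of genes with a simulated log2 fold change of 1 in size and 85% of those at 0.5, and 3.7% of calls were false. The simulation changed only genes above 1 CPM, by no smaller step, and gave each gene the spread typical of its level. Fos was more variable than that (14.2% against 10.9%). Fosl1, Fosl2 and Maff lay under that trend and the other genes of the 10 above it, so these rates need not hold for them.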

Additional observations from a re-analysis of the deposited data

How the results depend on the processing

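Fitted directions of the 10 genes held under all alternatives except for Fosb, which was 0 (above 0 before rounding) with limma voom, 0.06 and 0.04 without untreated replicates 2 and 3 and 0.08 without doxycycline replicate 3 (range -0.12 to 0.08 with a library left out), and Junb, which was -0.02 without untreated replicate 1 and -0.02 without doxycycline replicate 3 (range -0.02 to 0.08). The number of calls did not hold. Over all tested genes, 210 were called higher and 439 lower with no filter and 378 and 475 with the GC content and length correction, against 44 to 269 higher and 116 to 487 lower when a library was left out. Among the 10 genes, 1 was called higher and 2 lower with no filter, 1 and 1 with the Wald test of DESeq2, and 2 and 2 with the GC content and length correction, against 0 to 1 higher and 0 to 2 lower when a library was left out. The 4 called with that correction were Fos, Fosl1, Jun and Atf3, and the cause was not tested.

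AP-1 relatives called lower numbered 1 with no filter, 1 with the GC correction and 0 to 1 with a library left out. Other immediate early genes called higher numbered 1 with no filter, 1 with DESeq2, 2 with the GC correction and 0 to 2 with a library left out, and those called lower 2 with library size only, 2 with no filter, 2 with DESeq2, 3 with the GC correction and 1 to 2 with a library left out. Upstream genes called numbered 1 higher and 1 lower with the GC correction, 1 lower with no filter and 0 to 1 lower with a library left out. Phosphatases called numbered 2 higher and 1 lower with the GC correction, and 0 to 2 higher and 0 to 1 lower with a library left out. Of the AP-1 targets, 1 was called higher with DESeq2 and 1 with the GC correction, and 6 to 9 lower with a library left out. The share of Fosl1 in the Fos family differed by 2.85 points in counts not scaled for length, by 5.59 points by longest coding transcript, and by 4.95 to 7.61 points with a library left out.

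Deviations of same-numbered libraries over the tested genes correlated at -0.04, -0.004 and 0.018, which does not show that the numbers share nothing. The share of Rn45s was lowest in replicate 1 and highest in replicate 2 of both groups. With the replicate number as a block, 118 genes were called higher and 300 lower, 0 of the 10 genes were called, 1 other immediate early gene was called higher, and no other count named here changed by over 1.5 times.

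With 3 libraries a group, no permutation test can go below 0.1. Fos, at 125 to 289 counts a library, was measured with the least depth of the 10.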
